A study of Mus musculus with 6 samples.

Results

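Interferon-stimulated genes are the genes that cells switch on when they sense interferon. The set described here holds 47 of them, a list of known interferon-response genes matched by symbol to the 23284 genes of the deposited table, where all 47 were found. The list was chosen with earlier results of these data known. Its shares beside those of all genes are therefore description, not a test of the list. RNA was measured in 6 libraries of parietal cells, which secrete acid in the stomach gland, sorted from transgenic mice by their red fluorescent protein tdTomato. The 3 control libraries have the genotype label Transgenic-Tom, and the 3 noggin libraries Transgenic-Tom-nog with the treatment label Noggin. Noggin is an extracellular inhibitor that binds bone morphogenetic proteins (BMPs), here a transgene driven by the H+/K+ ATPase promoter of parietal cells. Per the design text, noggin mice also carried a Cre driven by that promoter and a Rosa26-tdTomato reporter, and tdTomato is shared by both groups; whether controls carried the Cre is not stated. The labels call the replicates biological but do not give age, sex, strain or whether a replicate was 1 mouse or a pool, so each p-value reflects library-to-library spread. The comparison of noggin with control libraries asks what blocking BMP signals does to parietal cells.

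Type I interferons bind the receptor pair Ifnar1 and Ifnar2, type II interferon binds Ifngr1 and Ifngr2, and type III interferons bind Ifnlr1 with Il10rb. The receptors act through Janus kinases on STAT proteins. A STAT complex that holds Irf9 binds the interferon-stimulated response element (ISRE), and STAT pairs bind the gamma-activated sequence (GAS). The induced proteins sense viral nucleic acid, block translation, degrade RNA, modify proteins and attack the membranes around intracellular microbes. Epithelial cells respond to both type I and type III interferons.

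Values are FPKM as deposited (fragments scaled by transcript length and by library), so levels of different genes can be set side by side. Replicates are listed in the order 1, 2, 3 throughout, and the sequencing depth behind the values is unknown. Nog, the transgene, was at 1.97, 0.871 and 1.09 FPKM across the controls and 2734, 2289 and 2281 FPKM with noggin, which matches the labels. The parietal cell marker Atp4a was high in every library but lower with noggin, at 13660, 13390 and 16220 FPKM across the controls and 5433, 7619 and 5773 FPKM with noggin. It was not called (log2 fold change -1.21, limma adjusted p = 0.124). Of 9 parietal cell markers 4 were called lower, against 0.695% of all tested genes. Kcnq1 and Kcnj15 also lay wholly lower with noggin and were not called, while Atp4b lay wholly higher and was not called. The libraries had 9381 to 10718 genes at 1 FPKM or above. In noggin replicate 3, 542 of 10644 tested genes were listed at 0, against 19 to 34 in each of the other libraries.

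Interferon-stimulated genes were higher in the noggin libraries, with calls in 7 of the 8 functional classes of the set. For 38 of the 47 genes all 3 noggin libraries lay above all 3 controls, and the groups of the other 9 overlapped. The test was run on log2(FPKM + 1), a scale that understates the change of low genes, and took only genes that reached 1 FPKM in 3 or more libraries, 38 of the 47 among them. Of these, 18 rose at a limma adjusted p under 0.05, 0 fell and 20 did not pass, while 1.75% of all tested genes rose and 0.695% fell. In 34 of the 38 tested genes the noggin libraries all lay above the controls, against 20.3% of all tested genes. The 18 had log2 fold changes from 2.19 (Ifi35) to 5.65 (Ly6a). Without adjustment, 33 of the 38 had p under 0.05 and were higher, against 15.8% of all tested genes. All 38 tested genes had a positive log2 fold change, against 48.3% of all tested genes. That of Irf8 turned to -0.11 when libraries were rescaled to the same total and that of Mx1 to -0.048 without noggin replicate 1.

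A gene that is near 0 in controls can enter the test only through its noggin values, and 17 of the 38 tested genes had fewer than 3 controls at 1 FPKM. The other 21 passed on their controls alone. Of these 21, 11 rose, against 1.47% of the 10039 genes that reach 1 FPKM in all 3 controls. In 19 of the 21 the groups did not overlap, with noggin higher, against 19.7% of those genes. Their median log2 fold change was 2.28, and that of those genes was -0.06.

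Single libraries decided how many genes were called (over all genes, 186 higher became 4 without control replicate 1 and 1187 without noggin replicate 2). The count of 18 became 0 without control replicate 1, control replicate 3 or noggin replicate 1. It was 15 without control replicate 2 (10 of the 18 among them) and 15 without noggin replicate 3 (12 of the 18 among them). Without noggin replicate 2 it was 27, all 18 among them. It was 8 with a pseudocount of 0.1, 7 with one of 0.01, 5 without a mean-variance trend and 8 with a correction for transcript length. Without a filter on low values it was 0, where 35 of 47 had an unadjusted limma p under 0.05. Rescaling libraries to the same total moved the median over all tested genes from -0.03 to -0.65 (log2), and changed the calls over all genes from 186 higher and 74 lower to 115 and 666 (243 and 231 with quantile normalization), with 22 of the interferon-stimulated genes called higher and 0 lower; it made the linear fold of 14 of the 38 over 1.5 times smaller, with log2 fold changes down to 0.042 for Irf1, 1.695 for Ly6e, 1.56 for Lgals3bp and 1.505 for Ifi35.

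**Figure D1:**
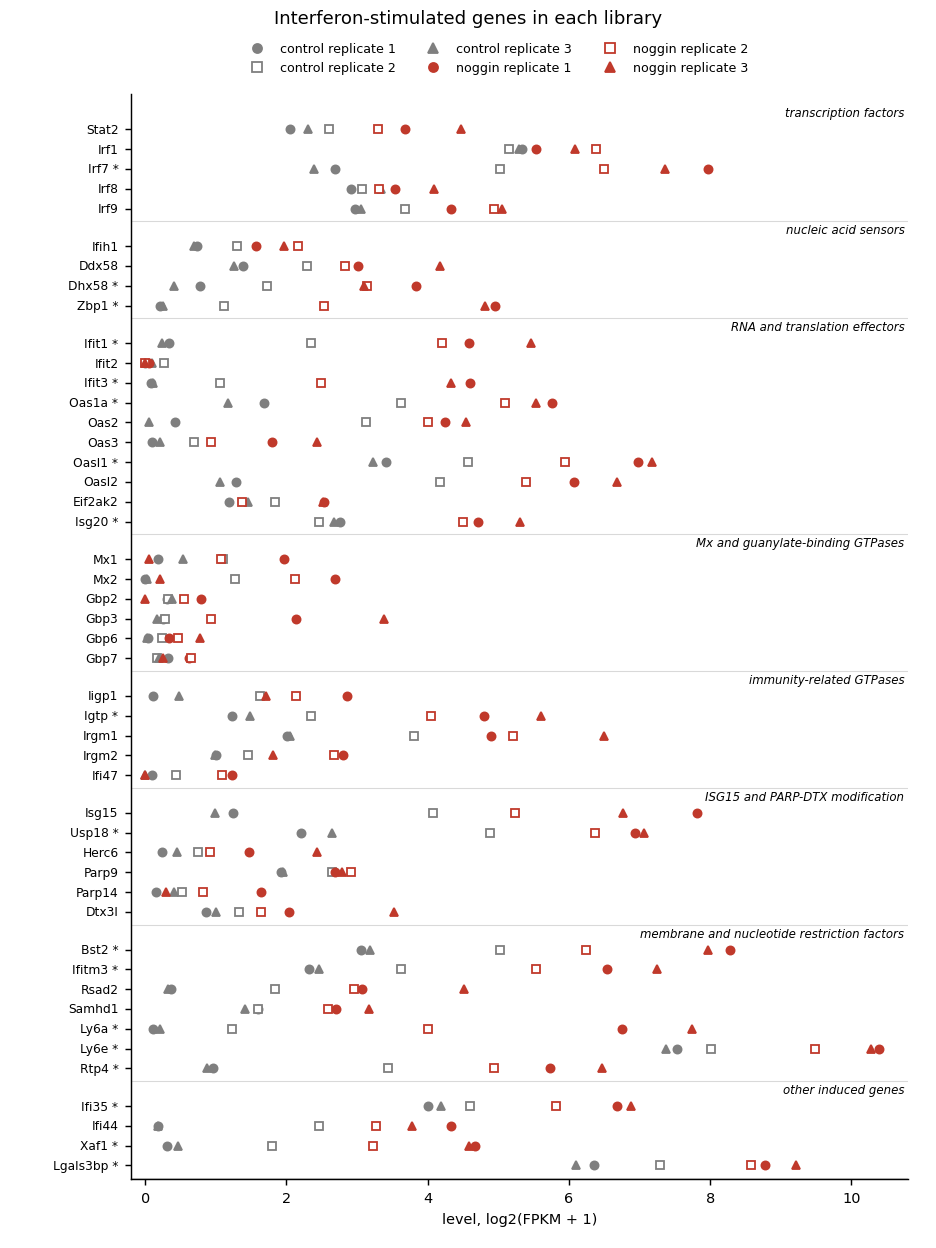
Level of each of the 47 genes on the x axis, log2(FPKM + 1), in 6 libraries, with genes on the y axis grouped by role. Grey symbols are controls, red symbols noggin libraries, open squares replicate 2 of each group, and an asterisk marks the 18 genes called higher. For 38 genes every red symbol lies to the right of every grey one, and among the controls the open square is the rightmost for 41 genes.

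Markers of several other cell types that the sort could hold also differed between the groups. In these bulk samples fewer cells of a type and less RNA per cell cannot be told apart. The 20 leukocyte markers summed to 2.52 to 3.15 FPKM in controls and to 27.25, 21.78 and 97.01 FPKM in noggin libraries. Lyz2, the lysozyme of myeloid cells, was at 0.187, 0.337 and 0.7197 FPKM across the controls and 0.941, 5.77 and 52.6 FPKM with noggin, and it was not tested. Tyrobp, a signalling adaptor of myeloid and natural killer cells, was at 0.218, 0.566 and 0.587 FPKM across the controls and 9.04, 3.42 and 22.3 FPKM with noggin, and Laptm5, a lysosomal protein of blood cells, at 0.407, 0.449 and 0.388 FPKM across the controls and 2.495, 4.41 and 15.1 FPKM with noggin. These genes and Fcer1g held most of the sum in each noggin library, and 12 of the 20 were under 1 FPKM in every library. Ptprc, the pan-leukocyte phosphatase, was at 0.0421 FPKM or less in controls and at 0.0493, 0.1799 and 1.305 FPKM in noggin libraries, and Gzma, a granzyme of cytotoxic lymphocytes, was listed at 0 in all 6. The 3 that were tested, Fcer1g, Tyrobp and Laptm5, had every control under 1 FPKM and so entered the test only through their noggin values. Fcer1g, an Fc receptor chain, was the 1 called higher, at 0.175, 0.406 and 0.156 FPKM across the controls and 10.78, 3.99 and 3.40 FPKM with noggin. The 4 class II presentation genes summed to 6.58 to 9.09 FPKM across the controls and to 16.5, 51.3 and 299.8 FPKM with noggin, and 0 of the 4 were called. Cd74, the class II invariant chain, was at 6.64, 4.14 and 5.06 FPKM across the controls and 8.78, 36.8 and 182 FPKM with noggin.

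Of 6 mast cell markers 5 were tested, of which Cpa3, Mcpt1 and Mcpt2 rose and Kit fell. Mcpt1, a mucosal mast cell protease, was at 1.25, 11.2 and 3.44 FPKM across the controls and 78.7, 47.3 and 63.02 FPKM with noggin, and control replicate 2 was the highest control here too. Kit, a receptor of mast cells and other cells, was at 32.4, 37.6 and 43.2 FPKM across the controls and 6.59, 10.3 and 9.47 FPKM with noggin. The other 5 mast cell markers summed to 2.95, 19.56 and 6.94 FPKM across the controls and to 167.9, 108.6 and 126.7 FPKM with noggin. In this sum control replicate 2 was the highest control and noggin replicate 2 the lowest noggin library, as in the interferon-stimulated sum. Gene by gene, noggin replicate 2 was the lowest noggin library for Cpa3 and Mcpt1, and noggin replicate 3 for Mcpt2, Fcer1a and Ms4a2. All 6 fibroblast markers and 5 of 6 endothelial markers were under 1 FPKM in every library, with Cdh5 listed at 0 in all 6 and Pecam1 at 5.70 FPKM in noggin replicate 3. Mucous neck cell markers summed to 1929 to 2490 FPKM in controls and 8573 to 21970 FPKM in noggin libraries, with 4 of 4 called higher, and enteroendocrine markers to 429 to 2593 FPKM and 1848 to 28330 FPKM, with 2 of 4 called higher. The summed level of the 47 interferon-stimulated genes was 396, 749 and 369 FPKM across the controls and 3672, 1978 and 3909 FPKM with noggin. Over all genes the FPKM summed to 633250, 669120 and 595740 across the controls and 1183200, 797170 and 1188200 with noggin. Among the noggin libraries replicate 3 was thus the highest and replicate 2 the lowest in total. Replicate 3 was also the highest for the leukocyte, class II and interferon-stimulated sums. Replicate 2 was also the lowest for the leukocyte, mast cell and interferon-stimulated sums, while replicate 1 was the lowest for class II. These sums were not corrected for the totals. The part of leukocytes, mast cells and the other cell types in the result was not tested.

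**Figure D2:**
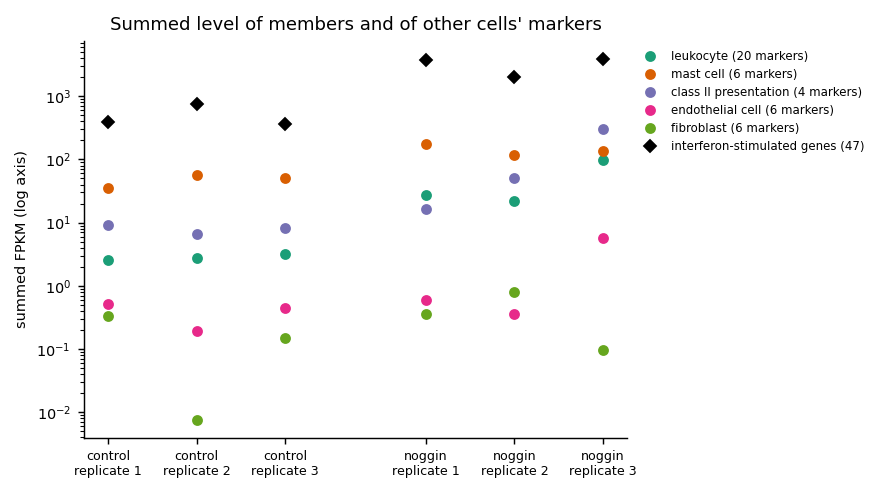
Summed FPKM on a log axis for the 47 interferon-stimulated genes (black diamonds) and 5 marker lists of other cells, in each of the 6 libraries; the mast cell list includes Kit, which fell. The black diamonds lie between 369 and 749 in controls and between 1978 and 3909 in noggin libraries, and leukocyte markers between 2.52 and 3.15 and between 21.78 and 97.01.

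The stretches before the start sites of several of these genes hold runs of letters known as interferon response motifs. The list is made of known interferon-response genes, so a high share of such motifs says nothing about what happened in these libraries. RefSeq promoter sequences (GRCm38.p6, the same build as mm10, 250 bases before to 50 bases after each start) were found for 34 of the 47 genes. The ISRE core was searched on both strands as GAAA, any 2 bases and GAAA again, and GAS as TTC, any 3 bases and GAA, which reads the same on both strands. An ISRE match stood in 18 of the 34 genes and in 18 of their 41 promoters (43.9%), against 3.44% of all 32851 promoters and 2.83% of the 9782 promoters of tested genes. A GAS match stood in 13 of the 34 genes and in 31.7% of their promoters, against 8.30% of all promoters. Of the 18 genes called higher 12 had a promoter in the table, and 6 of these held an ISRE match, beside 18 of the 34 over called and uncalled genes together. A match is a run of letters, not a measured binding site.

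The 160 bases before the start are given 5′ to 3′ on the strand of the gene for the called genes whose ISRE match lies before the start, and for Isg15 and Irgm2. Capitals mark ISRE and GAS matches, which run together where they overlap.
Isg15, chr4:156200819-156200978, minus strand: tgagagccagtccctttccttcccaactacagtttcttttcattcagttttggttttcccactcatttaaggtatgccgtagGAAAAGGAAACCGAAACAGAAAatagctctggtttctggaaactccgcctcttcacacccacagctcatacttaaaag
Ifit1, chr19:34640729-34640888, plus strand: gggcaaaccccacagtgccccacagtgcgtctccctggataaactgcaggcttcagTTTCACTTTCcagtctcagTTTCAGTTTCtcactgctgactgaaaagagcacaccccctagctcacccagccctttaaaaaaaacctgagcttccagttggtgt
Ifit3, chr19:34583369-34583528, plus strand: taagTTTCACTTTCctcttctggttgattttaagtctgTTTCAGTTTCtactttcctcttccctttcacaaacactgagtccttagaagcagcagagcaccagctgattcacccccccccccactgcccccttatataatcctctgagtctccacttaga
Oas1a, chr5:120907526-120907685, minus strand: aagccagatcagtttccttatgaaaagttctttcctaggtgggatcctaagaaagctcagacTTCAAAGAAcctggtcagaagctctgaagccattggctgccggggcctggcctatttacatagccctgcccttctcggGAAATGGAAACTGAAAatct
Bst2, chr8:71537473-71537632, minus strand: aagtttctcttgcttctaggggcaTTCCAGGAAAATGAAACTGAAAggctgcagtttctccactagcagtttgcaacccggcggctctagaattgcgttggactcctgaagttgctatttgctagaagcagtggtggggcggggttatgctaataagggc
Igtp, chr11:58199396-58199555, plus strand: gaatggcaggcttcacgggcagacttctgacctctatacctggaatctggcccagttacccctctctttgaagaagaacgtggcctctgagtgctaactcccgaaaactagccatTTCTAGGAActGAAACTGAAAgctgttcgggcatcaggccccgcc
Irgm2, chr11:58214817-58214976, plus strand: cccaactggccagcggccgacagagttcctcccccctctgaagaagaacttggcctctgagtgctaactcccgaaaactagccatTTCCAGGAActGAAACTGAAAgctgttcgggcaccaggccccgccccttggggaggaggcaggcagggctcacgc
Isg15 has 3 overlapping ISRE matches between 78 and 57 bases before the start. Ifit1 and Ifit3 have 2 separate ones each, read on the opposite strand. Igtp and Irgm2 each have a GAS match followed by an ISRE match, and the longest run identical between their windows is 38 bases. In Bst2 a GAS match overlaps the first of 2 overlapping ISRE matches. In Ifitm3 both ISRE matches lie after the start, at bases 3 to 12 and 20 to 29.

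The interferons themselves were listed at or near 0. Of 11 interferon genes (5 of the alpha family, Ifnb1, Ifne, Ifnk, Ifng, Ifnl2 and Ifnl3), 7 were listed at 0 in all 6 libraries, Ifng, Ifnl2 and Ifnl3 among them, and 0 passed the filter. The highest value was 0.211 FPKM, for Ifna5 in noggin replicate 1, and Ifnb1 was at 0.0642 FPKM there and listed at 0 in the other 5. With the depth unknown this sets no limit on their level.

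The receptors were present in both groups and 0 of 6 were called. Ifnar1 was at 2.77, 3.602 and 4.1 FPKM across the controls and 4.47, 3.66 and 3.67 FPKM with noggin (log2 fold change 0.14 with an SE of 0.296 and a limma adjusted p = 0.7801). Ifnar2 was at 13.7, 19.3 and 19.4 FPKM across the controls and 37.97, 26.8 and 11.5 FPKM with noggin (log2 fold change 0.39 with an SE of 0.417 and a limma adjusted p = 0.573). For both the groups overlapped. Ifngr1 was at 31.8, 28.9 and 27.4 FPKM across the controls and 31.96, 49.7 and 46.3 FPKM with noggin, and Ifngr2 at 29.01, 23.6 and 23.6 FPKM across the controls and 33.6, 46.8 and 43.5 FPKM with noggin. Their noggin libraries all lay above the controls, with log2 fold changes of 0.500 (SE of 0.225 and limma adjusted p = 0.201) and 0.67 (SE of 0.213 and limma adjusted p = 0.113). All 4 of these differences turned negative after rescaling to the same total, and Ifngr2 was called with the length correction (limma adjusted p = 0.0470). Ifnlr1, listed under its older symbol Il28ra, was at 2.242, 1.535 and 1.973 FPKM across the controls and 1.6, 1.487 and 0.696 FPKM with noggin. Its log2 fold change of -0.39 (SE of 0.3104 and limma adjusted p = 0.444) turned slightly positive with quantile normalization and the length correction. Il10rb was at 28.33, 32.51 and 35.66 FPKM across the controls and 17.53, 37.7 and 18.46 FPKM with noggin. Its log2 fold change was -0.46 (SE of 0.314 and limma adjusted p = 0.372). For both the groups overlapped.

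Of the kinases, STATs, brakes, adaptors and upstream factors outside the set, none was called. Socs1, an induced inhibitor of Janus kinases, was at 1.43, 1.66 and 1.19 FPKM across the controls and 10.5, 4.197 and 7.57 FPKM with noggin (log2 fold change 1.73 with an SE of 0.372 and a limma adjusted p = 0.0617). Trex1, a DNA exonuclease, was at 7.76, 9.92 and 9.07 FPKM across the controls and 36.4, 16.4 and 20.2 FPKM with noggin (log2 fold change 1.28 with an SE of 0.326 and a limma adjusted p = 0.0817). Socs1, Trex1, Ticam1 and Socs3 were picked after their values were seen. In 22 of the 26 tested genes of the wider pathway (receptors, kinases, STATs, brakes, adaptors and upstream factors) the log2 fold change was under 1 in size. The median over the 26 was 0.12, with 15 positive and 11 negative. None of the 26 was called by limma at an adjusted p under 0.05, and 5 higher and 1 lower had an unadjusted p under 0.05, where 15.8% of all tested genes were higher and 10.9% lower. Ticam1, a Toll-like receptor adaptor, had a log2 fold change of -1.25 and overlapping groups (limma adjusted p = 0.231). The one lower was Socs3, a STAT-induced brake, at 103, 67.2 and 83.7 FPKM across the controls and 42.9, 55.6 and 32.05 FPKM with noggin (log2 fold change -0.96 with an SE of 0.261 and a limma adjusted p = 0.0919).

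Among the 5 transcription factors of the set, 1 rose and 4 did not pass. Irf7, the factor that amplifies type I interferon, was at 5.47, 31.6 and 4.24 FPKM across the controls and 249.9, 89.5 and 164 FPKM with noggin (log2 fold change 3.91 with an SE of 0.696 and a limma adjusted p = 0.0428). Noggin replicate 2 was the lowest of its group and control replicate 2 the highest of the controls, yet the groups did not overlap. Irf9, a DNA-binding partner of Stat2, was at 6.81, 11.8 and 7.29 FPKM across the controls and 19.1, 29.8 and 32.2 FPKM with noggin (log2 fold change 1.54 with an SE of 0.311 and a limma adjusted p = 0.05096), and Stat2 at 3.15, 5.08 and 3.96 FPKM across the controls and 11.8, 8.87 and 21.3 FPKM with noggin (log2 fold change 1.499 with an SE of 0.373 and a limma adjusted p = 0.08004). Neither overlapped between groups. Irf8, a factor of myeloid and B cells, was at 6.55, 7.39 and 9.16 FPKM across the controls and 10.6, 8.97 and 16.1 FPKM with noggin (log2 fold change 0.54 with an SE of 0.305 and a limma adjusted p = 0.285), with overlap. Irf1, which interferon gamma induces through GAS, was at 39.2, 34.7 and 38.2 FPKM across the controls and 45.2, 82.7 and 67.2 FPKM with noggin and did not pass (log2 fold change 0.74, SE 0.247, limma adjusted p = 0.122).

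The sensors of foreign nucleic acid were 4, of which 2 rose. Zbp1, a sensor of left-handed nucleic acid, was at 0.162, 1.18 and 0.1897 FPKM across the controls and 29.9, 4.81 and 27.1 FPKM with noggin (log2 fold change 3.57 with an SE of 0.663 and a limma adjusted p = 0.0444). Dhx58, a helicase that tunes RNA sensing, was at 0.718, 2.29 and 0.321 FPKM across the controls and 13.2, 7.82 and 7.56 FPKM with noggin (log2 fold change 2.39 with an SE of 0.431 and a limma adjusted p = 0.0429). In both, control replicate 2 was the highest control and the groups did not overlap. The RNA helicases Ddx58 and Ifih1 had log2 fold changes of 1.69 (SE of 0.473 and limma adjusted p = 0.0953) and 0.99 (SE of 0.328 and limma adjusted p = 0.122) and did not pass. Ifih1 was at 0.656, 1.47 and 0.617 FPKM across the controls and 1.97, 3.46 and 2.92 FPKM with noggin. All 4 sensors were without overlap between groups.

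Among 10 effectors that act on RNA and translation, 8 were tested and 5 rose. Ifit1, which binds foreign RNA caps, was at 0.261, 4.11 and 0.175 FPKM across the controls and 22.98, 17.4 and 43.2 FPKM with noggin (log2 fold change 3.78 with an SE of 0.625 and a limma adjusted p = 0.0357). Ifit3, its partner, was at 0.0585, 1.09 and 0.07898 FPKM across the controls and 23.1, 4.63 and 19.2 FPKM with noggin (log2 fold change 3.39 with an SE of 0.599 and a limma adjusted p = 0.0425). Ifit2 lies in the same cluster on chromosome 19 and stood at 0.203 FPKM or less in every library, so it was not tested. It was the 1 gene of the 47 with a lower mean in noggin libraries.

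The oligoadenylate synthetases make the messenger that activates the RNA-degrading enzyme RNase L. Oas1a was at 2.21, 11.4 and 1.26 FPKM across the controls and 53.1, 33.1 and 45.3 FPKM with noggin (log2 fold change 3.297 with an SE of 0.599 and a limma adjusted p = 0.0429). Oasl2, a synthetase-like protein, was at 1.44, 17.01 and 1.09 FPKM across the controls and 66.2, 41.04 and 102 FPKM with noggin (log2 fold change 3.88 with an SE of 0.798 and a limma adjusted p = 0.0534). Its control replicate 2 lay far above the other controls, and it did not pass. Oasl1, a relative that restrains Irf7 translation, was at 9.67, 22.7 and 8.33 FPKM across the controls and 125, 60.3 and 143 FPKM with noggin (log2 fold change 2.96 with an SE of 0.444 and a limma adjusted p = 0.0295). Oas2 did not pass (log2 fold change 3.07 with an SE of 0.757 and a limma adjusted p = 0.0777), and Oas3 was not tested, at 0.0643, 0.622 and 0.162 FPKM across the controls and 2.48, 0.913 and 4.38 FPKM with noggin. The Oas genes have close relatives on chromosome 5, and how reads shared by such copies were counted is not stated.

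Isg20, an exonuclease that degrades RNA, was at 5.798, 4.49 and 5.37 FPKM across the controls and 25.2, 21.7 and 38.7 FPKM with noggin (log2 fold change 2.21 with an SE of 0.2902 and a limma adjusted p = 0.0233). Of the 18 called genes it alone did not have control replicate 2 as the highest control. Eif2ak2, the kinase that stops translation on double-stranded RNA, was at 1.27, 2.58 and 1.75 FPKM across the controls and 4.79, 1.59 and 4.74 FPKM with noggin (log2 fold change 0.65 with an SE of 0.414 and a limma adjusted p = 0.337), with overlap.

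The large GTPases had 2 tested members, and 0 of them were called. Mx1, a dynamin-like antiviral GTPase, was at 0.138, 1.14 and 0.457 FPKM across the controls and 2.901, 1.104 and 0.0354 FPKM with noggin (log2 fold change 0.42 with an SE of 0.509 and a limma adjusted p = 0.617). Its relative Mx2 is annotated in GENCODE as a polymorphic pseudogene, not as protein coding. Mx2 was at 0, 1.41 and 0.0213 FPKM across the controls and 5.47, 3.33 and 0.1595 FPKM with noggin (log2 fold change 1.24 with an SE of 0.671 and a limma adjusted p = 0.268). Noggin replicate 3 lay below control replicate 2 for both, while noggin replicate 1 was the highest library. The 4 guanylate-binding proteins, which coat the vacuoles of intracellular microbes, did not pass the filter. Gbp3 was at 0.187, 0.2105 and 0.126 FPKM across the controls and 3.38, 0.903 and 9.43 FPKM with noggin, Gbp6 at 0.0235, 0.179 and 0.02297 FPKM across the controls and 0.268, 0.381 and 0.709 FPKM with noggin, Gbp2 at 0.237, 0.255 and 0.304 FPKM across the controls and 0.725, 0.464 and 0 FPKM with noggin and Gbp7 at 0.248, 0.127 and 0.151 FPKM across the controls and 0.542, 0.572 and 0.191 FPKM with noggin. Groups overlapped for Gbp2 and Gbp7. In noggin replicate 3, Mx1, Mx2, Gbp2 and Ifi47 were at 0.160 FPKM or less, and Gbp2 and Ifi47 were listed at 0.

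Of the 5 immunity-related GTPases, which act on the same vacuoles in mice, 4 were tested and 1 rose. Igtp was at 1.34, 4.103 and 1.804 FPKM across the controls and 26.7, 15.5 and 47.6 FPKM with noggin (log2 fold change 3.12 with an SE of 0.475 and a limma adjusted p = 0.0311). Irgm1 was at 3.004, 12.9 and 3.13 FPKM across the controls and 28.8, 35.99 and 89.2 FPKM with noggin (log2 fold change 2.92 with an SE of 0.592 and a limma adjusted p = 0.0511), and Irgm2 at 1.01, 1.75 and 0.977 FPKM across the controls and 5.98, 5.36 and 2.495 FPKM with noggin (log2 fold change 1.28 with an SE of 0.372 and a limma adjusted p = 0.101). The GENCODE spans of Igtp and Irgm2 overlap on the plus strand of chromosome 11, though the RefSeq promoter shown for Irgm2 lies past the end of Igtp. Which annotation was used and how reads in an overlap were counted are not stated, so both values are uncertain. Iigp1 had a log2 fold change of 1.496 (SE of 0.489 and limma adjusted p = 0.1198). All 4 tested members were without overlap, and Ifi47 was at 0.0725, 0.349 and 0 FPKM across the controls and 1.34, 1.12 and 0 FPKM with noggin.

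Isg15 is a ubiquitin-like protein that is attached to other proteins, and 1 of the 4 tested genes of its class rose. Isg15 itself, at chromosome 4, 156199424 to 156200818 in mm10, was at 1.36, 15.9 and 0.984 FPKM across the controls and 224, 36.6 and 107 FPKM with noggin. Its log2 fold change of 4.501 was second in size among the tested members, but the spread within both groups was wide and it did not pass (SE of 0.919 and limma adjusted p = 0.0521). Usp18, the protease that removes Isg15 and blocks the type I receptor, rose (log2 fold change 3.54 with an SE of 0.642 and a limma adjusted p = 0.0429), at 3.63, 28.6 and 5.27 FPKM across the controls and 121, 81.9 and 133 FPKM with noggin. Herc6, the mouse ligase of Isg15, was at 0.179, 0.675 and 0.363 FPKM across the controls and 1.76, 0.883 and 4.42 FPKM with noggin and was not tested. The ADP-ribosyltransferase Parp9 was at 2.78, 5.24 and 2.88 FPKM across the controls and 5.45, 6.51 and 5.89 FPKM with noggin (log2 fold change 0.62 with an SE of 0.324 and a limma adjusted p = 0.254), and Dtx3l, the ubiquitin ligase it pairs with, had a log2 fold change of 1.34 (SE of 0.508 and limma adjusted p = 0.149). The annotated spans of these 2 genes overlap on opposite strands, and strand was not stated to be kept, so reads of one may be counted for the other. Parp14 was at 0.116, 0.442 and 0.325 FPKM across the controls and 2.12, 0.764 and 0.226 FPKM with noggin, was not tested and overlapped between groups.

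The 7 restriction factors of membranes and nucleotide pools were all tested, 5 of them rose and all 7 were without overlap. Ly6a, a surface protein known as a stem cell antigen and found on many cell types, was at 0.08305, 1.35 and 0.151 FPKM across the controls and 107, 15.02 and 213 FPKM with noggin. It had the largest log2 fold change of the tested members (5.65, SE 0.882, limma adjusted p = 0.0312), and noggin replicate 2 was far below the other noggin libraries. Rtp4, a chaperone of membrane receptors, was at 0.954, 9.85 and 0.828 FPKM across the controls and 52.1, 29.8 and 87.2 FPKM with noggin (log2 fold change 3.95 with an SE of 0.7197 and a limma adjusted p = 0.0429). Bst2 or tetherin, which holds budding virus at the cell surface, was at 7.34, 31.7 and 8.11 FPKM across the controls and 309.8, 74.5 and 249 FPKM with noggin (log2 fold change 3.73 with an SE of 0.6696 and a limma adjusted p = 0.0429).

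Ifitm3, which blocks viral fusion, was at 3.995, 11.3 and 4.52 FPKM across the controls and 92.2, 45.3 and 151 FPKM with noggin (log2 fold change 3.64 with an SE of 0.502 and a limma adjusted p = 0.02502). Ly6e, a surface protein that limits coronavirus entry, was the most abundant gene of the set at 184, 258 and 165 FPKM across the controls and 1346, 712 and 1240 FPKM with noggin (log2 fold change 2.41 with an SE of 0.302 and a limma adjusted p = 0.0181). It was the only member of the 18 with more than 100 FPKM in every control. Rsad2 or viperin, which makes a chain-terminating nucleotide, had a log2 fold change of 2.67 (SE of 0.581 and limma adjusted p = 0.0633). Samhd1, which depletes the nucleotides of DNA synthesis, was at 2.03, 2.03 and 1.66 FPKM across the controls and 5.48, 5.02 and 8.01 FPKM with noggin (log2 fold change 1.28 with an SE of 0.308 and a limma adjusted p = 0.0751).

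Of the 4 remaining induced genes 3 rose. Xaf1, a pro-apoptotic zinc-finger protein, was at 0.237, 2.47 and 0.375 FPKM across the controls and 24.4, 8.37 and 23.1 FPKM with noggin (log2 fold change 3.31 with an SE of 0.552 and a limma adjusted p = 0.0357). Lgals3bp, a secreted galectin-binding glycoprotein, was at 81.2, 155 and 67.9 FPKM across the controls and 437, 382 and 595 FPKM with noggin (log2 fold change 2.27 with an SE of 0.331 and a limma adjusted p = 0.0284). Ifi35 was at 15.1, 23.2 and 17.2 FPKM across the controls and 101, 55.6 and 116 FPKM with noggin (log2 fold change 2.19 with an SE of 0.313 and a limma adjusted p = 0.0264). None of the 3 overlapped between groups. Ifi44 was at 0.134, 4.48 and 0.131 FPKM across the controls and 19.04, 8.68 and 12.7 FPKM with noggin (log2 fold change 2.85 with an SE of 0.6504 and a limma adjusted p = 0.0667) and did not pass.

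**Figure D3:**
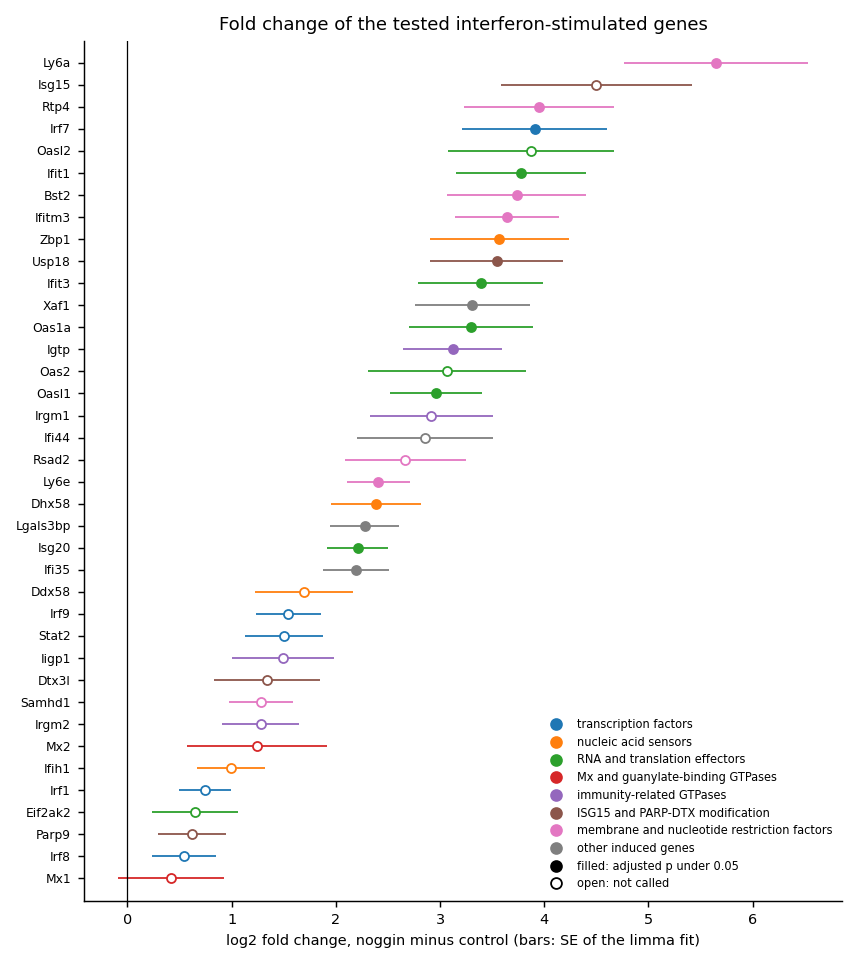
Log2 fold change of the 38 tested genes, noggin minus control, with the SE of the limma fit as bars, n = 3 libraries a group. Filled points are the 18 called genes, colours are roles, and the points run from 0.42 for Mx1 to 5.65 for Ly6a, with Isg15 at 4.501 not called.

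The controls were not alike. In control replicate 2 the set was higher than in the other controls: it was the highest control for 34 of the 38 tested genes, against 41.4% of all tested genes. The difference in log2(FPKM + 1) between control replicate 2 and the mean of control replicates 1 and 3 had a median of 1.06 over the tested members and 0.04 over all tested genes. It was 2.97 for Isg15, 2.996 for Oasl2, 2.89 for Oas2 and 2.52 for Rtp4, and -0.26 for Isg20 and -0.16 for Irf1. The sum of the mast cell markers other than Kit was also highest among controls in that library, at 2.95, 19.56 and 6.94 FPKM. Differences on the same log2 scale were uneven, at 1.94 for Mcpt1, 1.36 for Mcpt2, 0.97 for Fcer1a, 0.44 for Cpa3 and 0.069 for Ms4a2. The leukocyte sum there, 2.71 FPKM, lay between those of the other controls, and the class II sum, 6.58 FPKM, was the lowest. The part of these cells in the difference was not tested. In 35 of the 38 tested genes every noggin library was higher than control replicate 2, against 25.1% of all tested genes, and over all 47 genes this count was 40. Set against that library alone, the tested members had median differences of 1.89, 1.23 and 2.19 in noggin replicates 1, 2 and 3.

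Within the noggin group replicate 2 was the lowest for 28 of the 38 tested genes, against 25.5% of all tested genes, and for 17 of the 18 called genes. Replicate 3 was the highest for 20 and replicate 1 for 15. The median level of the tested members, log2(FPKM + 1), was 1.26, 2.53 and 1.22 in controls and 4.63, 4.003 and 4.93 in noggin libraries, while that of all tested genes ran from 3.28 to 3.53. By role, the restriction factors went from 1.60, 3.44 and 1.41 in controls to 6.54, 4.95 and 7.25 in noggin libraries. The Mx pair went against this in noggin replicate 3, at 0.13 against 2.33 and 1.59 in noggin replicates 1 and 2.

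**Figure D4:**
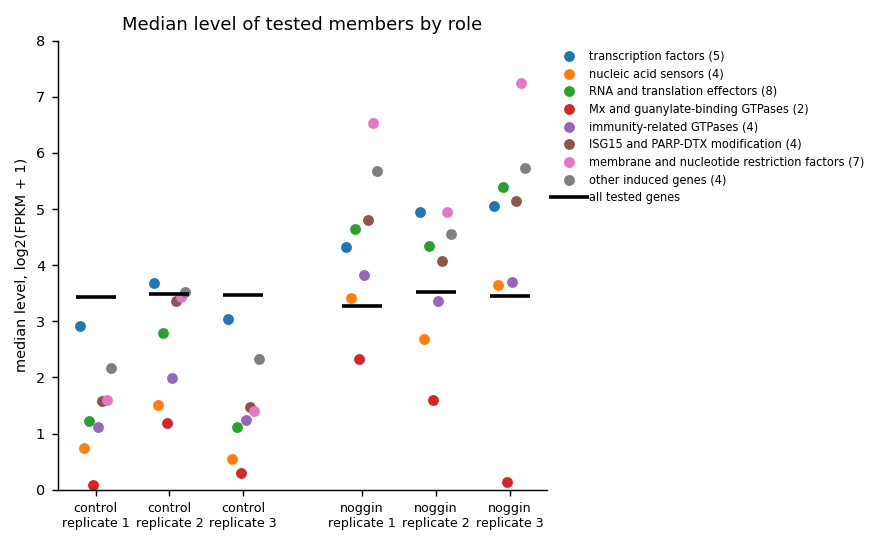
Median level of the tested members of each role, log2(FPKM + 1), in each of the 6 libraries, with the number of genes in brackets and a black bar for all 10644 tested genes. The roles sit highest among controls in replicate 2, and the Mx pair drops to 0.13 in noggin replicate 3.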

How the data were processed

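The deposited table holds FPKM for 23284 genes in 6 libraries, as made by the authors. Per the labels' protocols, DNase-treated RNA (1 ng or more) went into SMART-Seq low-input libraries, which were read as 50 base single-end reads. The submitters' processing notes name FastQC 0.10.0, bcl2fastq and mm10. Which aligner, quantifier and gene annotation were used is not given in the sources used here, and strand is not stated to be kept. Groups and replicate numbers are from the sample titles. FPKM keeps no depth, so no detection limit is given.

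Values were tested with limma 3.58.1 in R 4.3.3 on log2(FPKM + 1), with a mean-variance trend and the group as the only term, two-sided, with Benjamini-Hochberg adjustment over the 10644 genes that reached 1 FPKM in 3 or more libraries and a threshold of 0.05. SE is that of the moderated fit. The fit was run on simulated data with independent noise for each gene and library. These held no shift shared by many genes of a library, so they do not bear on how the calls depend on single libraries. The members and lists were chosen with earlier results of these data known. Values in every library are given for the called members and, in each role, for the 2 highest and the 1 lowest by fold change, and for the receptors; those of other genes were added after they were seen. Results on some genes are not reported here. Coordinates and transcript lengths are from the GENCODE M21 basic set (GRCm38), and promoters from RefSeq. Alternatives were other pseudocounts (0.1, 0.01), filters (none, 5 FPKM), scalings (equal totals of 1000000, quantile), no trend, a replicate block, a lowess correction for transcript length, and leaving out each library.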

Additional observations from a re-analysis of the deposited data

How the results depend on the processing

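The number of interferon-stimulated genes called higher (18) was 8 with a pseudocount of 0.1, 7 with 0.01, 0 with no filter (47 tested), 5 with no mean-variance trend and 8 with the length correction, and ran from 0 to 27 when 1 library was left out. It was 20 with a filter of 5 FPKM (29 tested), 22 after rescaling and 26 with quantile normalization. The number called lower was 0 in every one of these settings. The median log2 fold change (2.54) was 3.34 with a pseudocount of 0.01, 2.16 after rescaling and 2.19 with no filter, and ran from 2.34 to 2.97 when 1 library was left out. Of the wider pathway, 0 genes were called higher, which became 1 with a filter of 5 FPKM, 2 with quantile normalization and 1 with the length correction, and 0 lower, which became 1 after rescaling and 1 with quantile normalization. When 1 library was left out these ran from 0 to 3 higher and from 0 to 3 lower.

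Signs changed for Irf8 (-0.11) after rescaling and Mx1, whose value ran from -0.048 to 0.909 when 1 library was left out (-0.048 without noggin replicate 1). Rescaling put Ifnar1 at -0.44, Ifnar2 at -0.29, Ifngr1 at -0.20 and Ifngr2 at -0.020. Ifnlr1 (listed as Il28ra) was at 0.043 with quantile normalization and at 0.029 with the length correction. The cause was not tested.

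Replicate numbers gave no sign of pairing. Deviations of same-numbered libraries from their group means correlated at 0.105, -0.141 and 0.00519. Those of differently numbered libraries correlated at -0.129 to 0.12. These values cannot show whether same-numbered libraries were handled together. With the replicate block 20 members were called, 17 of the 18 among them. The depth behind the values is unknown.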

Other observations

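Relatives of the set by symbol (the Ifit, Ifitm, Oas, Gbp, Irg, Ifi, Slfn, Trim30 and Trim34 families and, of the PARP family, only Parp10, Parp11 and Parp12, a rule written after values were seen) added 45 genes, of which 14 were tested and 2 rose, against 1.75% of all tested genes. Of the 14, 10 had a positive log2 fold change and 4 a negative one (Irgq -0.86, Parp11 -0.39, Slfn9 -0.28 and Parp10 -0.19), and in 7 the noggin libraries all lay above the controls, against 20.3% of all tested genes. Among these 7, Oas1b, Oas1c, Oas1g and Slfn2 had fewer than 3 controls at 1 FPKM. They could enter the test only through their noggin values, so their lack of overlap is no independent support. Ifitm2, a neighbour of Ifitm3 in sequence and function, was at 42.2, 39.5 and 35.6 FPKM across controls and 127, 109 and 166 FPKM with noggin (log2 fold change 1.73, SE 0.207, limma adjusted p = 0.0159). Slfn2, a Schlafen protein of lymphocyte quiescence, was at 0, 1.40 and 0.0970 FPKM across controls and 11.7, 5.91 and 17.2 FPKM with noggin (log2 fold change 3.08, SE 0.497, limma adjusted p = 0.0330). Oas1g, a close copy of Oas1a, was at 0.704, 5.56 and 0.409 FPKM across controls and 23.8, 10.4 and 22.2 FPKM with noggin and did not pass (limma adjusted p = 0.0617). Ifi27l2a, an interferon-induced gene, was at 14.6, 195 and 17.04 FPKM across controls. It was at 2660 FPKM in noggin replicate 1 and at 1092 FPKM in noggin replicate 3. Noggin replicate 2 lay below control replicate 2, so the groups overlapped (log2 fold change 4.35, SE 1.22, limma adjusted p = 0.0966).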
